A study of Mus musculus with 12 samples.

Results

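The genes described here are 10 of the 37991 listed in each deposited count file, chosen for their place in oxygen sensing. They are the 3 prolyl hydroxylases Egln1, Egln2 and Egln3, the 3 subunits Hif1a, Epas1 and Arnt of the hypoxia-inducible factor (HIF), the ubiquitin ligase gene Vhl, and Ndrg1, Ankrd37 and Vegfa, HIF target genes outside glycolysis. Each matched 1 Ensembl identifier. Egln3 and Ndrg1 were also chosen for the pattern of their levels over the groups, so their values are given as a description without a test, and the other 8 were chosen by role. Of the 10, 9 passed the filter on low counts and Epas1 had no read.

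Polyadenylated RNA was sequenced from induced MEL cells, leukemic mouse red cell precursors that start to mature when treated with an inducer, in 12 libraries and 4 groups of 3. The delta45 group carried a knockdown of LDB1 together with an Ldb1 construct named delta 4/5. The FL group carried the same knockdown with a full-length Ldb1 construct, and the KD group the knockdown alone. The control group was labelled as control, with no knockdown named. All 4 groups were induced, and delta45, FL and KD share the knockdown. The inducing agent, the knockdown vector and whether a line was 1 clone were not stated in the labels. Each construct occurs in 1 group only, so the construct and the line that carries it cannot be told apart in this design. LDB1 is an adaptor that joins erythroid transcription factors and holds enhancers near promoters, and the series asks, by its title, how that looping leads to transcription. The labels do not state that replicate libraries are separate cultures. The p-values therefore rest on the spread between these samples alone, which may be technical.

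As background, the EGLN enzymes use oxygen and iron to hydroxylate prolines of the HIF alpha subunits HIF1A and EPAS1. VHL binds the hydroxylated subunit and marks it for degradation. When oxygen is low the alpha subunit escapes, pairs with ARNT and binds a short core motif, ACGTG or GCGTG, in its target genes. Egln3, Ndrg1, Ankrd37, Vegfa and, more weakly, Egln1 are known targets of HIF, so a hydroxylase gene can be both a brake and a readout of the pathway. Its main control is on protein stability, which mRNA counts do not measure. In the red cell lineage the pathway is known for the control of erythropoietin and of iron supply.

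Each library held 8783970 to 20464959 reads in genes. Levels are given in CPM, a gene's reads relative to a common library size set with TMM factors, per library or as group mean ± SD (n = 3 each). Changes are log2 ratios ± SE from 1 edgeR quasi-likelihood model of the 12 libraries. A gene was called when its p, adjusted by Benjamini-Hochberg over 12837 tested genes, was below 0.05. Ldb1, the targeted gene, stood at 765 ± 15.4 CPM in delta45, 3436 ± 244 in FL, 129 ± 31.1 in KD and 717 ± 71.2 in control. In delta45 and FL these counts may include reads from the construct, which gene counts cannot tell apart from those of the cells' own gene. The KD libraries differed most among themselves, with a chi-square per degree of freedom of 32.267 to 96.548 between pairs, against 2.229 to 24.391 within the other groups. All 10 erythroid markers examined, from Hba-a1 to Gata1, were read in these libraries, and their summed level was 5160 to 5340 CPM in delta45, 33100 to 40200 in FL, 2990 to 5510 in KD and 12200 to 13000 in control. Summed over 6 megakaryocyte markers, levels were 131 to 152 CPM in delta45, 2600 to 2750 in FL, 739 to 791 in KD and 808 to 908 in control. Summed lymphoid markers were 5.55 to 6.09, 6.25 to 9.53, 32.9 to 45.2 and 13.6 to 15.7 CPM in the same order. Myeloid, mast, and stromal and endothelial lists each summed to at most 10.7 CPM in any library, with Ms4a2, Mcpt8, Col1a2 and Dcn at 0. The share of reads aligned to several places was 38.694 to 39.217% in delta45, 42.264 to 47.118% in FL, 42.686 to 48.513% in KD and 50.6 to 53.314% in control. The part of these differences in the results was not tested. In such bulk libraries fewer cells expressing a gene and less RNA per cell cannot be told apart.

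Promoters are shown for the members that differed most between the lines and for Egln1, the hydroxylase with the most reads. They run from 250 bases before to 50 bases after the annotated start, as given by RefSeq on GRCm38.p6, a build other than the authors' mm9. Capitals mark the HIF core motifs ACGTG and GCGTG, searched on both strands. The Ankrd37 promoter lies at chr8:45999801-46000100, that of Egln3 at chr12:54203825-54204124 and that of Egln1 at chr8:124949205-124949504, each on the minus strand and written 5′ to 3′ along the gene.
Ankrd37: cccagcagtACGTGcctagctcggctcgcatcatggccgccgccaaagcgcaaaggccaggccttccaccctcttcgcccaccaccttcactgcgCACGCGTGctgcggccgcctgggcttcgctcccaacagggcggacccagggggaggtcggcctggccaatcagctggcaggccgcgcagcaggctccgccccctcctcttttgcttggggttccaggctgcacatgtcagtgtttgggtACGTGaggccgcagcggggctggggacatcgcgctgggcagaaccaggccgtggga
Egln3: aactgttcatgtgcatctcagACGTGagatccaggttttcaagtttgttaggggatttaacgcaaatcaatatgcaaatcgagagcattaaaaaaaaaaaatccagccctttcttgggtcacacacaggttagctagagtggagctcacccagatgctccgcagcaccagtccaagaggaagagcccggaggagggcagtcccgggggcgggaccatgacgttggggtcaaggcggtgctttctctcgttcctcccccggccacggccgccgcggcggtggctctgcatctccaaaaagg
Egln1: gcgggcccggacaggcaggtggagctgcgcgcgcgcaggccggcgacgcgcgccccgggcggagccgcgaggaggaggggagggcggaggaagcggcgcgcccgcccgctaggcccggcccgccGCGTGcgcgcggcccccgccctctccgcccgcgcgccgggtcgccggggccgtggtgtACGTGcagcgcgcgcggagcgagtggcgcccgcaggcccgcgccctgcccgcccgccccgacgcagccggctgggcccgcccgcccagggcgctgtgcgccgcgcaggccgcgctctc

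The Ankrd37 window held ACGTG at -241 to -237 and again at -6 to -2 from the start site, with a pair of overlapping GCGTG matches, 1 on each strand, between them. Of 32851 promoters of this length in the RefSeq table, 19.6% held ACGTG, 32.4% GCGTG, 43.8% either, and 2.7% held ACGTG at 2 or more separate places. Egln3 had a single ACGTG at -229 to -225, far from its start, and Egln1 had GCGTG at -126 to -122 and ACGTG at -68 to -64. In all, 8 of the 10 members had a promoter in the table, Epas1 and Ndrg1 being the other two. ACGTG was also present in a promoter of Egln2, of Hif1a and of Vegfa, only GCGTG in that of Arnt, and neither in that of Vhl. At 1 place in Egln2 and 1 in Hif1a the ACGTG matches of both strands overlap as CACGTG, the E-box core, which 7.2% of the promoters held. A match describes letters in the window and is no evidence of binding.

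**Figure D1:**
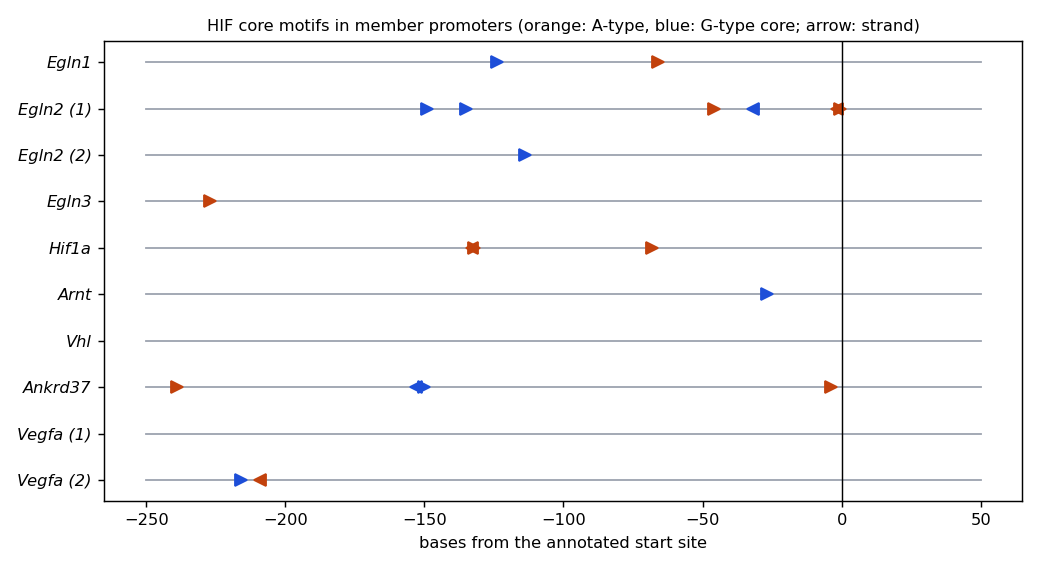
Core motifs in the RefSeq promoters of 8 members, by distance in bases from the annotated start site; orange marks ACGTG, blue marks GCGTG, and the arrow gives the strand relative to the gene. Numbers in brackets tell apart alternative promoters of 1 gene, and Vhl and the first Vegfa promoter hold no match.

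The 3 hydroxylase genes each had a pattern of their own. Egln1 was highest in control and lowest in delta45, Egln2 stayed within a narrow range, and Egln3 was read in FL and KD and next to absent in delta45 and control. Egln1 encodes the enzyme that does most of the oxygen-dependent HIF hydroxylation in many tissues. It stood at 85.47, 95.13 and 97.49 CPM in delta45, 153.9, 174.1 and 158.9 in FL, 190.2, 367.0 and 306.4 in KD, and 341.3, 402.7 and 359.8 in control. The delta45 libraries lay below every other library and the FL libraries below every KD and control library, while KD and control overlapped. Egln1 was 3.97-fold lower in delta45 than in control (log2 change -1.99 ± 0.188, edgeR adjusted p = 1.27e-06) and 2.27-fold lower in FL than in control (log2 change -1.18 ± 0.184, edgeR adjusted p = 0.000117). Against KD it was 3.1-fold lower in delta45 and 1.77-fold lower in FL (edgeR adjusted p = 1.26e-05 and 0.00184), and delta45 was 1.75-fold below FL (edgeR adjusted p = 0.00232). The FL change against KD was -0.83 on the log2 scale, and -0.55 without KD replicate 2. Between KD and control Egln1 was not called (log2 change -0.35 ± 0.181, edgeR adjusted p = 0.121), although without KD replicate 2 the change was -0.57 with an edgeR adjusted p of 0.018.

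Egln2, a hydroxylase known to be less dependent on HIF for its own expression, averaged 75.7 ± 0.549 CPM in delta45, 81.2 ± 11.5 in FL, 116 ± 37.8 in KD and 87.7 ± 14.0 in control. In KD, 2 libraries stood at 131.3 and 144.0 CPM, while KD replicate 1 held 73.15 CPM and lay among the other groups. Egln2 was called lower in delta45 than in KD (log2 change -0.61 ± 0.209, edgeR adjusted p = 0.0219) and in FL than in KD at the edge of the threshold (log2 change -0.51 ± 0.21, edgeR adjusted p = 0.049997). Both calls were lost without KD replicate 2, KD replicate 3 or any 1 delta45 library, and the FL call without any 1 library other than KD replicate 1. In a fit of FL and KD alone the FL call was also lost (edgeR adjusted p = 0.144). Neither delta45, FL nor KD was called different from control in Egln2 (edgeR adjusted p = 0.398, 0.675 and 0.124). Without KD replicate 1, Egln2 was called higher in KD than in control (log2 change 0.65, edgeR adjusted p = 0.00169).

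Egln3, a hydroxylase strongly induced by HIF in many cell types, had 3, 2 and 1 reads in the delta45 libraries, 1519, 1386 and 2695 in FL, 670, 801 and 692 in KD, and 0 in each control library. In CPM these are 0.1405, 0.1277 and 0.07563 in delta45, 158.1, 161.0 and 158.5 in FL, 46.68, 86.89 and 60.55 in KD, and 0 in control. No library of FL or KD came near those of delta45 or control, and the FL libraries lay above all KD libraries with very little spread. This pattern chose the gene, so it is given without a test. With control set at 3 reads over the group, an upper limit of 0.0825 CPM, Egln3 was at least 1930-fold higher in FL and at least 749-fold higher in KD. In delta45 it was 1330-fold lower than in FL, with a 95% exact interval of 611 to 3630, and 517-fold lower than in KD (237 to 1410). These limits and intervals cover only counting error in reads pooled over each group. They leave out the spread between libraries and the choice of the gene by this pattern, and are no test. FL was 2.47-fold above KD. The delta45 line carries the same knockdown as KD and FL, and its 6 reads in all are set against 2163 in KD. Whether this difference goes with the construct or with the line cannot be told apart here.

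To compare the 3 hydroxylase genes with each other, CPM was divided by the length of all annotated exons of the gene in kb (GENCODE M21). Egln1 made up 48.7% of the summed CPM per kb in delta45, 33.7% in FL, 54.9% in KD and 76.5% in control. Egln2 made up 51.2, 21.6, 28.4 and 23.5%, and Egln3 0.0814, 44.6, 16.7 and 0%, in the same order of groups. Egln3 was thus the most abundant of the 3 mRNAs per kb in FL and the least abundant in the other groups. Its rank in FL rests on the exon lengths, as in CPM Egln1 stood there at 162 ± 10.6 and Egln3 at 159 ± 1.57. The summed level was 52.9 CPM per kb in delta45, 134 in FL, 146 in KD and 133 in control. With TMM scaling FL and control had like sums with different members. Egln3 stood in FL at 59.8 ± 0.59 CPM per kb and Egln1 at 45.2 ± 2.94, against 0 and 102 ± 8.77 in control. With library totals in place of TMM, Egln1 and Egln3 averaged 142.2 and 139.5 CPM in FL, and Egln1 375.8 in control. The likeness of the sums therefore depends on the scaling. The lengths come from a later annotation than the counts, which shifts the shares but not the comparison of a gene between groups.

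**Figure D2:**
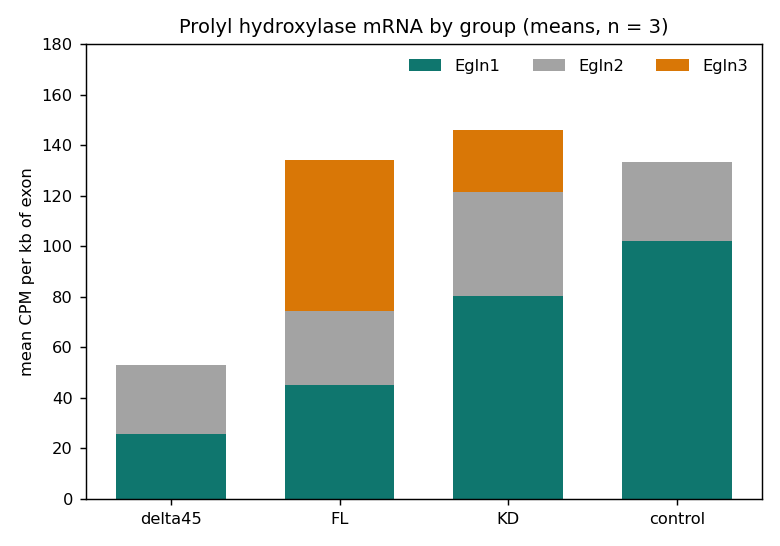
Mean CPM per kb of annotated exon for Egln1, Egln2 and Egln3 (vertical axis), stacked for each group (horizontal axis), n = 3 libraries. The delta45 stack reaches 52.9 and holds almost no Egln3, whereas Egln3 is 59.8 of the 134 in FL.

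Of the HIF subunits, Hif1a mRNA was higher in delta45 and FL than in control, Arnt was lowest in KD, and Epas1 had no reads. Epas1, the HIF alpha subunit known from endothelium and erythropoietin-producing cells, had 0 reads in all 12 libraries, an upper limit of 0.0191 CPM when 3 reads are allowed over all of them. Hif1a, the alpha subunit found in most cells, stood at 115.4, 93.79 and 93.55 CPM in delta45, 122.1, 115.6 and 119.6 in FL, 96.07, 63.35 and 53.63 in KD, and 48.29, 48.81 and 68.0 in control. Delta45 and FL lay above every control library, and KD replicate 1 reached into the delta45 range. Hif1a was 1.83-fold higher in delta45 than in control (log2 change 0.87 ± 0.196, edgeR adjusted p = 0.00167) and 2.16-fold higher in FL than in control (log2 change 1.11 ± 0.197, edgeR adjusted p = 0.000336). FL was also above KD (log2 change 0.74 ± 0.196, edgeR adjusted p = 0.00562), but with library totals in place of TMM this change was 0.46 with an edgeR adjusted p of 0.0787. Delta45 was called above KD (log2 change 0.51 ± 0.195, edgeR adjusted p = 0.0388), a call lost without delta45 replicate 1, KD replicate 2, KD replicate 3 or any 1 FL library, where the adjusted p was 0.051 to 0.139. That call was also lost with library totals (edgeR adjusted p = 0.0597) and in a fit of delta45 and KD alone (edgeR adjusted p = 0.105). Every delta45 library lay just below every FL library, a change of -0.24 that was not called in the fit of all groups (edgeR adjusted p = 0.323) and was called in a fit of those 2 groups alone (edgeR adjusted p = 0.0324). KD and control were not told apart (edgeR adjusted p = 0.139), although KD was above control without KD replicate 3 (log2 change 0.54, edgeR adjusted p = 0.0294). The antisense gene Gm15283 overlaps 5.6% of the Hif1a exon length and had 746 reads of its own, and without strand information reads from the shared 330 bases cannot be told apart. Gm49321, on the same strand, overlaps 2.5%.

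Arnt, the partner subunit that HIF alpha needs to bind DNA, averaged 427 ± 15.8 CPM in delta45, 440 ± 51.5 in FL, 339 ± 23.9 in KD and 485 ± 7.55 in control. Every KD library lay below every library of the other groups. Arnt was 1.43-fold lower in KD than in control (log2 change -0.51 ± 0.103, edgeR adjusted p = 0.00118) and 1.26-fold higher in delta45 than in KD (log2 change 0.33 ± 0.103, edgeR adjusted p = 0.0138). It was 1.3-fold higher in FL than in KD (log2 change 0.37 ± 0.103, edgeR adjusted p = 0.00749), which with library totals was 0.10 with an edgeR adjusted p of 0.431. Against control, Arnt was not called in delta45 (edgeR adjusted p = 0.137) or FL (0.254), but it was called lower in delta45 in a fit of the 2 groups alone (edgeR adjusted p = 0.0435) and in FL with library totals (log2 change -0.36, edgeR adjusted p = 0.011).

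Vhl, whose product recognises hydroxylated HIF alpha, was lower in delta45 than in each other group. It stood at 59.38, 57.34 and 57.86 CPM in delta45, 83.49, 85.73 and 80.62 in FL, 68.97, 96.65 and 85.92 in KD, and 83.63, 93.71 and 91.08 in control. The delta45 libraries lay below all others and the remaining groups overlapped. Vhl was 1.54-fold lower in delta45 than in control (log2 change -0.62 ± 0.118, edgeR adjusted p = 0.00047) and 1.44-fold lower than in KD (log2 change -0.53 ± 0.118, edgeR adjusted p = 0.002). It was 1.43-fold lower than in FL (log2 change -0.52 ± 0.118, edgeR adjusted p = 0.00239), but with library totals the change was -0.24 with an edgeR adjusted p of 0.0763. Against control, Vhl was not called in FL or KD (edgeR adjusted p = 0.461 and 0.521), and with library totals it was called lower in FL (log2 change -0.33, edgeR adjusted p = 0.0208).

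The 3 target genes that are not hydroxylases, Ankrd37, Vegfa and Ndrg1, were each lowest in delta45, and differed in their order over the other groups. Ndrg1 was chosen for its pattern, and Egln3, also a HIF target, was lowest in control. Ankrd37, an ankyrin repeat gene widely used as a readout of HIF activity, had 42, 32 and 28 reads in the delta45 libraries, or 1.967, 2.043 and 2.118 CPM. It stood at 37.16, 44.84 and 42.93 CPM in FL, 76.56, 166.0 and 141.4 in KD, and 124.2, 131.7 and 97.89 in control. The groups formed 3 tiers without overlap, delta45 lowest, FL between, and KD with control on top. Ankrd37 was 57.6-fold lower in delta45 than in control (log2 change -5.85 ± 0.288, edgeR adjusted p = 6.02e-09), 62.5-fold lower than in KD (log2 change -5.97 ± 0.289, edgeR adjusted p = 1.19e-08) and 20.4-fold lower than in FL (log2 change -4.35 ± 0.28, edgeR adjusted p = 4.07e-08). The FL level was 2.83-fold below control and 3.07-fold below KD (edgeR adjusted p = 8.19e-05 and 5.12e-05). KD and control were not called different (log2 change 0.12 ± 0.217, edgeR adjusted p = 0.677), although without KD replicate 1 the change was 0.38 with an edgeR adjusted p of 0.0293. Exons of Lrp2bp, a gene on the other strand with 33 reads in all libraries, overlap 22.7% of the Ankrd37 exon length, and those of Ufsp2, with 9241 reads, overlap 3.7%.

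Vegfa, the growth factor of blood vessels, followed another order. It stood at 114.6, 112.8 and 106.0 CPM in delta45, 476.2, 424.0 and 441.9 in FL, 272.0, 312.3 and 154.3 in KD, and 441.6, 502.9 and 344.9 in control. FL and control overlapped, KD lay below both, and delta45 lay below every other library. Vegfa was 3.86-fold lower in delta45 than in control (log2 change -1.95 ± 0.214, edgeR adjusted p = 4.77e-06), 4.02-fold lower than in FL (log2 change -2.01 ± 0.214, edgeR adjusted p = 4.53e-06) and 2.21-fold lower than in KD (log2 change -1.15 ± 0.21, edgeR adjusted p = 0.000488). It was 1.75-fold lower in KD than in control (log2 change -0.80 ± 0.208, edgeR adjusted p = 0.00608) and 1.82-fold higher in FL than in KD (log2 change 0.86 ± 0.208, edgeR adjusted p = 0.00323). Vegfa in FL was not distinguished from control (log2 change 0.06 ± 0.206, edgeR adjusted p = 0.825).

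Ndrg1, a stress and differentiation gene induced by HIF, stood at 28.71, 26.82 and 31.24 CPM in delta45, 161.2, 146.7 and 172.0 in FL, 443.3, 665.7 and 549.8 in KD, and 242.8, 236.2 and 203.6 in control. The 4 groups did not overlap, with KD on top and delta45 at the bottom. The gene was chosen for this pattern, so the sizes are a description. It was 19.1-fold lower in delta45 than in KD, 5.53-fold lower than in FL and 7.87-fold lower than in control. It was 2.43-fold higher in KD than in control and 1.42-fold lower in FL than in control. Antisense and promoter-antisense genes overlap 6.4 and 2.1% of its exon length, the first with 0 reads and the second with 32.

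**Figure D3:**
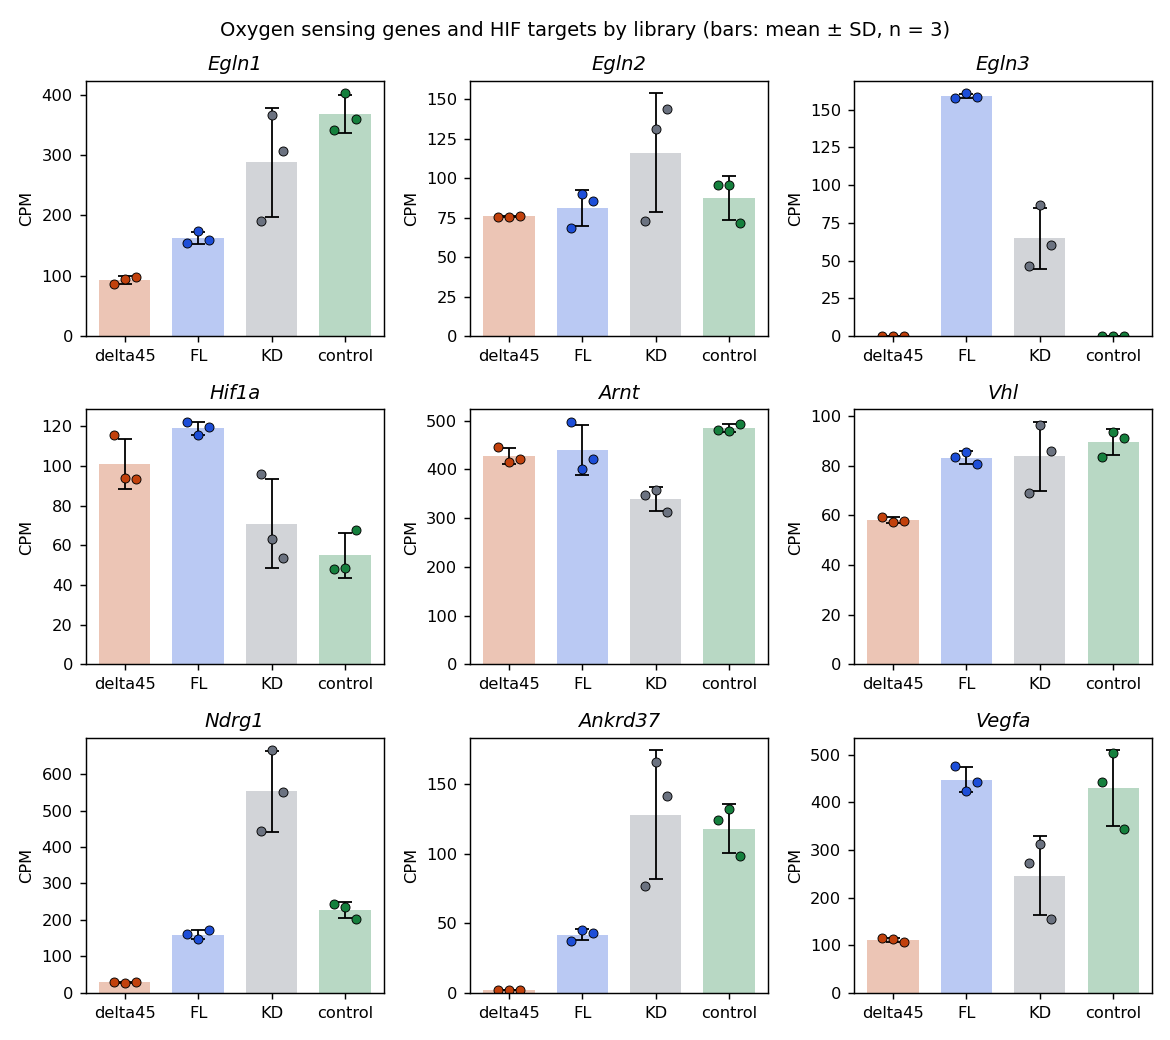
CPM (vertical axis, linear from 0) of the 9 members with reads, by group (horizontal axis); dots are libraries, and bars with whiskers are mean ± SD, n = 3. Egln3 is at or near 0 in delta45 and control, and Ndrg1, Ankrd37 and Vegfa are lowest in delta45.

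The order of the groups differed between the targets. Ankrd37 was lower and Vegfa higher in FL than in KD, while the top 2 groups of each, KD and control for Ankrd37 and FL and control for Vegfa, were not told apart. Ndrg1 had its highest level in KD, and Egln3 in FL with control at 0. Over the 12 libraries, with each gene's log2 CPM centred on its own mean, the member nearest to Ndrg1 was Egln1, at a root mean square difference of 0.98, followed by Ankrd37 at 1.01 and Vegfa at 1.23. Egln3 was far from every other member, the nearest being Ndrg1 at 3.95. The closest pair was Egln2 and Vhl at 0.30. The measure grows with the range of a gene, so genes that vary little lie close whatever their pattern. A gene of wide range, such as Egln3, lies far from most others.

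Among all tested genes, those nearest to Ndrg1 by the same measure were Cyp17a1, a steroid-synthesis enzyme gene, at 0.40, Eno1, a glycolytic enolase, and Cnih2, a receptor-trafficking gene, both at 0.47, and Slc2a1, a glucose transporter, and Apbb1, an adaptor gene, both at 0.52. Eno1 averaged 17.7 CPM in delta45, 74.5 in FL, 149 in KD and 98.0 in control. Cyp17a1 was scarce, at 0.223 to 3.60 CPM over the group means. Nearest to Egln3 were the chemokine receptor gene Ccr2 at 2.50, the sodium channel subunit gene Scn4b at 2.54, the membrane protease gene Mmp14 at 2.69, Rnf150 at 2.78 and the chemokine gene Cx3cl1 at 2.79. The smallest of these distances, 2.50 on the log2 scale, is wider than the 0.40 found for Ndrg1. Of these genes, Mmp14 also had 0 CPM in control, but stood at 10.2 CPM in delta45, 44.1 in FL and 58.1 in KD.

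The members chosen by role can be set against all tested genes, of which many changed in every comparison. In delta45 against control, 5 of the 7 with reads were called, 1 higher and 4 lower, where 64.4% of all tested genes were called, 31.9% higher and 32.5% lower. In delta45 against KD all 7 were called, 2 higher and 5 lower, against 59.9% of all tested genes, 29.2% higher and 30.7% lower. In delta45 against FL 4 were called, each lower, against 52.8%, 27.0% higher and 25.8% lower. With so many genes called everywhere, the counts alone set the members little apart, and their sizes are given instead. In delta45 against control the median absolute log2 change was 0.66 over all tested genes, against changes of -5.85 in Ankrd37, -1.99 in Egln1, -1.95 in Vegfa and 0.87 in Hif1a. The other members lay below that median in size, with -0.62 in Vhl, -0.21 in Egln2 and -0.18 in Arnt. In FL against KD 6 were called, 3 in each direction, against 58.0% of all tested genes, 26.3% higher and 31.7% lower. In FL against control 3 were called, 1 higher and 2 lower, against 59.3%, 28.1% higher and 31.2% lower, and 5 were called with library totals. In KD against control 2 were called, both lower, against 49.7%, 25.6% higher and 24.1% lower, and 4 were called without KD replicate 1. Libraries of both groups were fully apart for 6 of the 7 in delta45 against control (74.5% of all tested genes), 5 in delta45 against KD (63.5%), 5 in delta45 against FL (69.0%), 5 in FL against KD (59.7%), 3 in FL against control (69.8%) and 2 in KD against control (50.7%). The scaling mattered for FL: with library totals the share of all calls that were higher was 26.7%, against 45.4% with TMM, in FL against KD, 31.8 against 47.4% in FL against control, and 70.8 against 51.2% in delta45 against FL. FL and delta45 are both compared with the same KD and control libraries, so their changes share that spread.

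**Figure D4:**
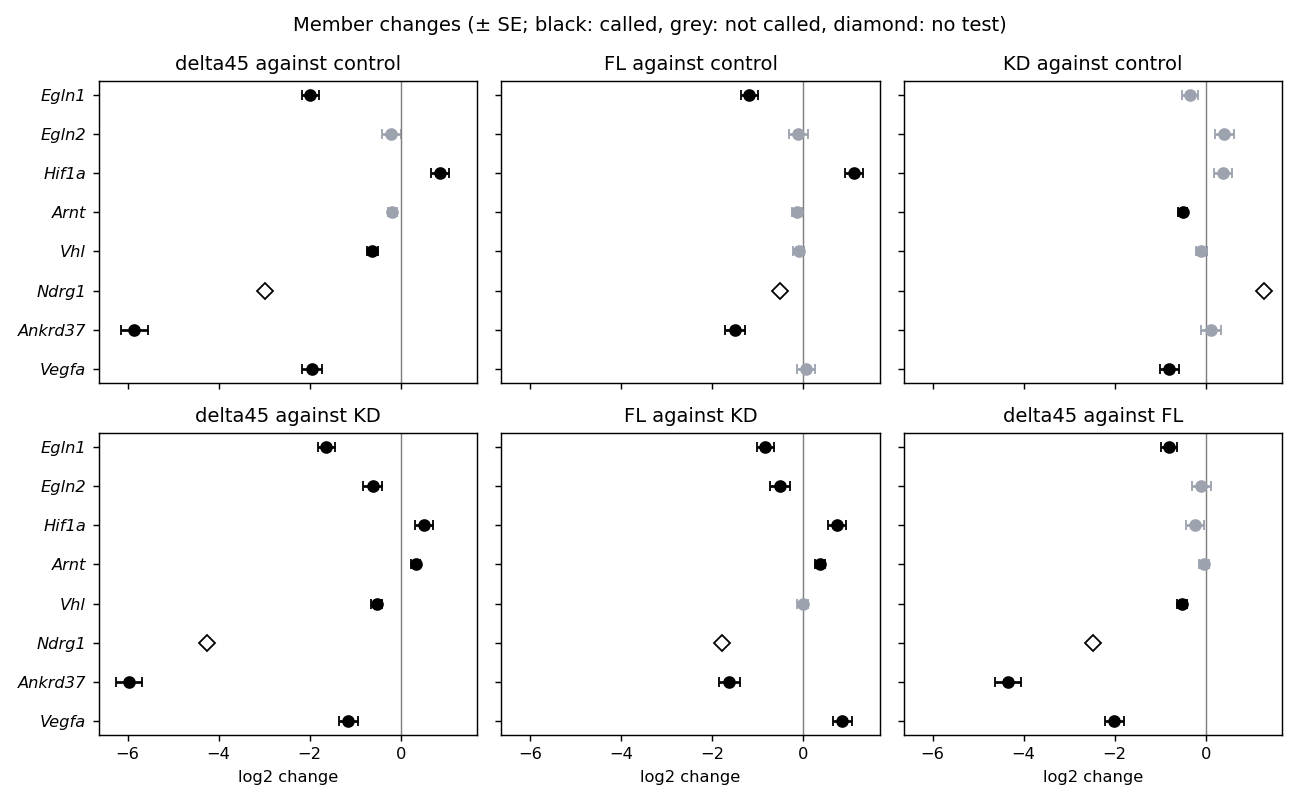
Log2 change (horizontal axis) of 8 members in the 6 comparisons, with SE from the edgeR fit; black points were called, grey points were not, and Ndrg1 is drawn as an open diamond without a test. Ankrd37 lies at -5.85 in delta45 against control and at 0.12 in KD against control. Egln3 and Epas1 are left out because a group had 6 reads or fewer.

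The other genes of the pathway were read from 5 lists outside glycolysis with 66 genes, of which 50 passed the low-count filter. In delta45 against control 9 of the 50 were called higher and 29 lower, where 31.9% of all tested genes were higher and 32.5% lower, with a median log2 change of -0.68 against 0.01 over all tested genes. In delta45 against KD 6 were higher and 29 lower (29.2 and 30.7% of all tested genes). In delta45 against FL 7 were higher and 26 lower (27.0 and 25.8%), or 11 and 20 with library totals. In FL against control 15 were higher and 18 lower (28.1 and 31.2% of all tested genes), and in FL against KD 15 and 17 (26.3 and 31.7%), or 10 and 19 with library totals. In KD against control 15 were higher and 16 lower (25.6 and 24.1%). The FL and KD counts lay near the shares over all tested genes. These lists were drawn up with earlier results of the same libraries known and the counts are a description. The genes named from these lists and from glycolysis were picked for the widest range of group means in the same libraries. Their sizes and adjusted p therefore describe picked genes and are not an independent test.

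Among HIF turnover genes and coactivators, 5 of 15 were higher and 4 lower in delta45 against control, near the 31.9 and 32.5% of all tested genes. In FL against control 7 were higher and 2 lower, against 28.1 and 31.2% of all tested genes. Cited2, a HIF target whose product competes with HIF for its coactivators, had the widest range. It stood at 181.8, 203.2 and 188.3 CPM in delta45, and averaged 1055 ± 117 in FL, 149 ± 34.1 in KD and 47.4 ± 10.2 in control. It was 22.2-fold higher in FL than in control, 3.14-fold higher in KD than in control and 5.52-fold lower in delta45 than in FL (edgeR adjusted p = 2.31e-09, 1.34e-05 and 1.74e-07). Cited2 was also 4.02-fold higher in delta45 than in control (edgeR adjusted p = 1.03e-06). The coactivator gene Ep300 was 2.08-fold higher in delta45 and 2.31-fold higher in FL than in control, and Crebbp 2.44-fold and 2.52-fold higher (edgeR adjusted p = 0.000706, 0.000306, 0.00119 and 0.00112). Crebbp was also 1.98-fold higher in KD than in control (edgeR adjusted p = 0.0101), where Ep300 was not called (0.697). Against KD, Crebbp was not called in delta45 or FL (edgeR adjusted p = 0.343 and 0.286). Cul2, the scaffold of the VHL ligase, was 1.73-fold higher in delta45 and 2.02-fold higher in FL than in control (edgeR adjusted p = 0.00261 and 0.00052). Hspa9, a mitochondrial chaperone, was 2.92-fold lower in FL than in control (edgeR adjusted p = 4.67e-07).

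Of 14 target genes of cell survival, metabolism and mitochondria, 12 were called lower and 0 higher in delta45 against both control and KD, and 11 lower and 1 higher against FL. Of all tested genes, 32.5, 30.7 and 25.8% were lower in delta45 against control, KD and FL. Ndufa4l2, which replaces a respiratory chain subunit in hypoxia, averaged 0.949 ± 0.411 CPM in delta45, 142 ± 13.6 in FL, 77.6 ± 22.7 in KD and 21.5 ± 2.64 in control, and was 152-fold lower in delta45 than in FL (edgeR adjusted p = 1.71e-09). The mitophagy receptor gene Bnip3 averaged 7.43 ± 0.316 CPM in delta45, 166 ± 22.9 in FL, 107 ± 32.2 in KD and 191 ± 31.9 in control, 25.7-fold lower in delta45 than in control (edgeR adjusted p = 7.3e-09). Higd1a, a mitochondrial stress gene, was 3.99-fold and Mxi1, a MYC antagonist, 5.38-fold lower in delta45 than in control (edgeR adjusted p = 1.7e-05 and 8.27e-09). Car12, a membrane carbonic anhydrase, was 1.62-fold lower in delta45 and 1.8-fold lower in FL than in control, and 2.91-fold higher in KD (edgeR adjusted p = 0.0319, 0.0165 and 0.000252). In KD against control this list had 7 of 14 higher and 4 lower, against 25.6 and 24.1% of all tested genes, and in FL against control 6 higher and 3 lower, against 28.1 and 31.2%.

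The list of matrix and chromatin hydroxylases, which also holds the oxidase gene Ero1a, gave 7 of 8 genes lower and 0 higher in delta45 against each of control, KD and FL. Over all tested genes 32.5, 30.7 and 25.8% were lower in these comparisons. P4ha1 and P4ha2, subunits of the collagen prolyl hydroxylase, were 7.17-fold and 8.07-fold lower in delta45 than in control (edgeR adjusted p = 4.11e-09 and 1.7e-09). Ero1a, an oxidase of the endoplasmic reticulum, was 9.64-fold and Jmjd6, a nuclear oxygenase, 3.38-fold lower (edgeR adjusted p = 8.26e-09 and 5.95e-06). In FL these 4 were also below control, by 1.92-fold, 2.28-fold, 3.97-fold and 1.73-fold (edgeR adjusted p = 3.08e-05, 2.34e-06, 3.58e-07 and 0.00336). Plod1, a collagen lysyl hydroxylase, was 2.91-fold higher in KD than in control (edgeR adjusted p = 2.34e-06), and was not called in delta45 or FL against control (edgeR adjusted p = 0.116 and 0.0692).

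Signalling and vessel targets gave 2 of 9 higher and 5 lower in delta45 against control, where 31.9% of all tested genes were higher and 32.5% lower. In FL against control 1 was higher and 5 lower, against 28.1 and 31.2% of all tested genes. Angptl4, a lipase inhibitor, averaged 12.5 ± 0.381 CPM in delta45, 0.934 ± 0.37 in FL, 33.4 ± 3.22 in KD and 3.59 ± 0.315 in control. It was thus 12.7-fold higher in delta45 than in FL, and the chemokine receptor gene Cxcr4 7.2-fold higher (edgeR adjusted p = 2.68e-08 and 4.76e-09). Angptl4 and Cxcr4 were the 2 genes called higher in delta45 against control, by 3.44-fold and 1.49-fold (edgeR adjusted p = 3.29e-06 and 0.00122). The growth factor gene Pdgfb was 14.4-fold lower in delta45 than in FL (edgeR adjusted p = 3.17e-08). Bhlhe40, a repressor of the circadian system, was 5.45-fold lower in delta45, 3.09-fold lower in FL and 3.04-fold lower in KD than in control (edgeR adjusted p = 7.9e-07, 2.65e-05 and 5.01e-05). Pgf, a relative of Vegfa, was scarce and was 6.18-fold lower in delta45 and 11.2-fold lower in FL than in control (edgeR adjusted p = 1.41e-05 and 5.2e-06). Erythropoietin mRNA was not detectable at this depth, with 1 read of Epo in all 12 libraries.

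Glycolysis genes, set beside the members for comparison, gave 1 of 20 higher and 17 lower in delta45 against control, with a median log2 change of -2.46, where 31.9% of all tested genes were higher and 32.5% lower. In FL against control 3 were higher and 4 lower with a median of -0.01, against 28.1 and 31.2% of all tested genes. Aldoa (aldolase) averaged 307 ± 25.2 CPM in delta45, 3774 ± 356 in FL, 2929 ± 950 in KD and 4752 ± 735 in control, 15.5-fold lower in delta45 than in control (edgeR adjusted p = 2.49e-08).

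**Figure D5:**
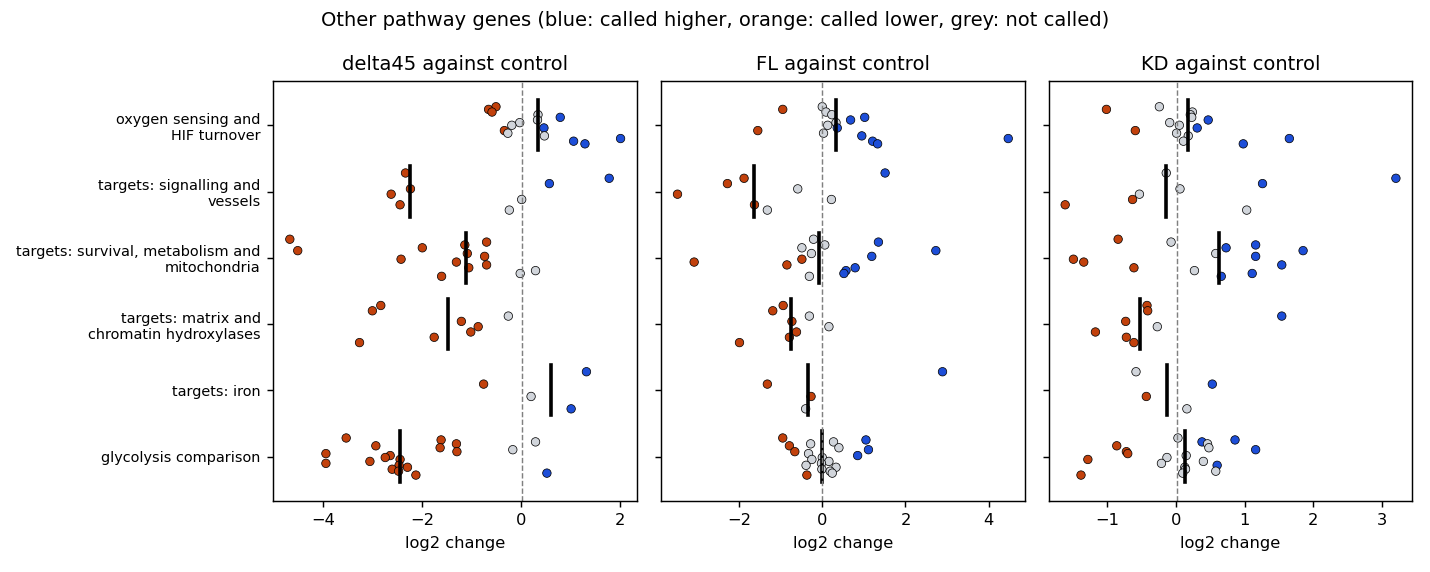
Log2 change against control (horizontal axis, scaled per panel) of tested genes of the 5 pathway lists and of glycolysis (rows); each point is a gene with more than 3 reads in every group, coloured blue when called higher, orange when called lower and grey otherwise, the black bar is the median of the whole tested list, and the dashed line the median of all tested genes. Most targets lie left of 0 in delta45 against control.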

How the data were processed

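Polyadenylated RNA was measured in 12 libraries in 4 groups of 3. Per the labels, RNeasy columns gave the RNA and the TruSeq RNA V2 kit, which does not mark the strand, the libraries. The deposited values are whole-number read counts per Ensembl gene, not normalized. Per the submitters' processing notes, build mm9 was used with TopHat 1.4.1, cutadapt 1.1, DESeq 1.10.1 and HTSeq 0.5.3p9. Their settings and gene models were not stated. Each file's 5 summary lines, which name no gene, were dropped. They tallied alignments to several places (38.694 to 53.314% of the total), reads in no gene (2.117 to 6.133%) and reads in more than 1 gene (1.33 to 1.809%). Symbols were matched for 32919 of 37991 identifiers through a supplied GENCODE table.

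From these counts, CPM and changes were computed here: filterByExpr left 12837 genes, TMM set the scale, and edgeR 4.0.16 in R 4.3.3 gave quasi-likelihood tests with 1 mean per group. Each SE was taken from the log2 change and its F statistic. With 3 libraries a side, a two-sided exact permutation p is never under 0.1, so no single-gene test of that kind was made. Likeness used log2 CPM with a prior count of 2. The test was checked on simulated counts.

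The members and lists were chosen with earlier results of these data known. Genes named outside the members are, per list, up to 5 with a group mean of 5 CPM or more and the widest range of group means, and the 5 nearest to Egln3 and to Ndrg1, leaving out clone, predicted and pseudogene names; Epo was named after its values were seen. Libraries of a group did not agree within counting noise. Alternatives were RLE scaling, library totals, other filters, DESeq2 1.42.0, a replicate block, 2-group fits and leaving out each library.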

Additional observations from a re-analysis of the deposited data

How the results depend on the processing

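In all, 1273 values were recomputed under the alternatives. Of the counts of genes, members and pathway genes called, 340 stayed within 1.5 times and 2 did not: the members called in KD against control ranged from 2 to 4 leaving out 1 library, with 4 without KD replicate 1, and those in FL against control were 5 with library totals. Of the member changes, 867 kept their direction and side of the threshold, 4 untested values moved by more than the spread, 30 lost the call, 10 gained it and 20 changed sign, none of them called. The sign changes were Vhl in FL against KD, at 0.01 with RLE scaling, 0.05 with at least 50 reads in total, 0.05 with only the 2 groups, 0.02 with DESeq2 and -0.07 to 0.17 leaving out 1 library; with library totals Egln2 at 0.18, Hif1a at 0.04 and Arnt at 0.23 in delta45 against FL and Vegfa at -0.16 in FL against control; and leaving out 1 library Vhl at -0.21 to 0.02 and Ankrd37 at -0.12 to 0.38 in KD against control, Arnt at -0.11 to 0.05 in delta45 against FL and Vegfa at -0.03 to 0.18 in FL against control. The cause was not tested. Library totals in place of TMM moved the median of all genes by -0.27 in FL against KD, 0.27 in delta45 against FL and -0.22 in FL against control, so smaller FL changes depend on the scaling.

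Whether the replicate numbers pair the libraries was not settled. Correlations of same-numbered deviations from the group means were -0.196 to 0.269 over 18 pairs, 9 of them above 0.1. No comparison had all of its pairs above 0.1, while a block for the replicate number raised the genes called in every comparison. With the replicate number as a block, genes called were 6593 in KD against control, 7627 in FL against KD, 7849 in delta45 against KD, 6936 in delta45 against FL, 7819 in FL against control and 8408 in delta45 against control, and Egln1 in KD against control gained a call (edgeR adjusted p = 0.0436).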

Other observations

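Of the 4 tested iron genes among the HIF targets, 2 were higher and 1 lower in delta45 against control, with a median log2 change of 0.60, where 31.9% of all tested genes were higher and 32.5% lower. The transferrin receptor gene Tfrc averaged 2118 ± 317 CPM in delta45, 6274 ± 462 in FL, 569 ± 71.8 in KD and 849 ± 374 in control. It was 2.49-fold higher in delta45 and 7.39-fold higher in FL than in control (edgeR adjusted p = 0.000293 and 6.83e-07). The iron exporter gene Slc40a1 was 2.01-fold higher in delta45 than in control (edgeR adjusted p = 0.00167), and the heme oxygenase gene Hmox1 was 1.69-fold lower in delta45 and 2.49-fold lower in FL (edgeR adjusted p = 0.000513 and 7.22e-06). Slc11a2, an iron importer, was 1.21-fold lower in FL than in control (edgeR adjusted p = 0.0259).

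The nearest tested protein-coding genes along the chromosome, taken by position in the GENCODE M21 order, did not repeat the absence of Egln3. Arhgap5, on one side, averaged 47.1 ± 6.9 CPM in delta45, 105 ± 14.0 in FL, 38.9 ± 29.6 in KD and 62.3 ± 28.8 in control. Sptssa, on the other side, averaged 74.2 ± 8.31, 78.9 ± 9.21, 117 ± 21.3 and 104 ± 24.4 CPM in the same groups. Next to Ndrg1, Sla, a signalling adaptor gene, averaged 3.79 ± 1.34 CPM in delta45, 38.1 ± 1.61 in FL, 57.6 ± 13.8 in KD and 58.5 ± 12.2 in control, while St3gal1, a sialyltransferase gene on the other side, averaged 170 ± 5.21 CPM in delta45, 444 ± 32.4 in FL, 171 ± 40.0 in KD and 198 ± 10.6 in control. No test was made of these neighbours, which were picked by position.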
